A study of Mus musculus with 6 samples.

Results

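The genes described here are those of the melanocyte, the neural crest-derived pigment cell of the epidermis, together with the signal that keratinocytes send it. All 10 were taken by gene symbol and were found among the 19618 genes of the count table: the pigment enzymes Tyr, Tyrp1 and Dct, the melanosome genes Pmel, Mlana and Slc45a2, the transcription factors Mitf and Sox10, the receptor Kit and its ligand Kitl. RNA had been sequenced from tail keratinocytes of mice aged 4 months, in 6 libraries. The 3 knockout samples carried the genotype K14cre+/ Gpr161Flox-Homozygous, in which Cre recombinase is driven by the keratin 14 promoter of basal keratinocytes. The 3 control samples had no K14cre in their labels: 1 was Gpr161Flox-Homozygous and 2 were Gpr161Flox-Heterozygous. The floxed allele was therefore present in both groups, and the comparison asks how the genes differ when Gpr161, a ciliary receptor that restrains Hedgehog signalling, is deleted in the epidermis.

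Melanin is made from tyrosine inside melanosomes, organelles that melanocytes pass to keratinocytes. Tyr, tyrosinase, carries out the rate-limiting step, and the related enzymes Dct and Tyrp1 act after it. Mitf is the master transcription factor of the lineage and is known to bind the promoters of the enzyme genes, while Sox10 acts upstream of Mitf. Kit is the receptor tyrosine kinase through which melanocytes receive Kitl, a growth factor known to keep melanocytes in the epidermis of mouse tail skin.

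The promoters of the 3 enzyme genes are shown because they share the M-box, the sequence TCATGTG that Mitf is known to bind. Each line gives the 160 bases that end just before the transcription start in RefSeq (build GRCm38.p6), 5′ to 3′ on the strand of the gene, and capitals mark TCATGTG. The stretches are chr7:87493513-87493672 (minus strand) for Tyr, chr4:80834053-80834212 (plus strand) for Tyrp1 and chr14:118052247-118052406 (minus strand) for Dct.
Tyr: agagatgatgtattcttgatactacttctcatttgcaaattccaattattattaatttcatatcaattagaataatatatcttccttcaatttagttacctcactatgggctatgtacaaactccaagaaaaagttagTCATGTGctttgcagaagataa
Tyrp1: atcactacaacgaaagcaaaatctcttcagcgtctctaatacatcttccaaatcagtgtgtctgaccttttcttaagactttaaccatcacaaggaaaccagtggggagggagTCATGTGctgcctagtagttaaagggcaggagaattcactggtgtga
Dct: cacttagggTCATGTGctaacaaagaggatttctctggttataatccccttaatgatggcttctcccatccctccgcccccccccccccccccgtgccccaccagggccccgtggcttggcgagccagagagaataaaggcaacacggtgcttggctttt
The motif lay at bases −22 to −16 from the start in Tyr, −47 to −41 in Tyrp1 and −151 to −145 in Dct. Dct held it once more on the opposite strand at −232 to −226, outside the printed stretch. The GENCODE annotation, used for the gene positions below, begins Tyrp1 at 80834123, within the printed stretch and upstream of the motif. The Tyrp1 motif position therefore holds for the RefSeq start only. Both strands of windows from 250 bases before to 50 bases after the start were searched. RefSeq windows were found for 6 of the 10 genes, and 4 (Pmel, Mlana, Slc45a2 and Sox10) had no entry. TCATGTG was absent from the windows of Kit, Kitl and Mitf, which has 3 annotated starts. Of all 32851 promoter windows in the same table, 3.77% held TCATGTG. The shorter CATGTG, which lies within it, was in 14.2% of all windows and in no further window of these genes. ACAAAG, a Sox-type motif, was in 18.7% of all windows and in those of Tyrp1 and Dct.

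The libraries held 17157864 to 25344399 estimated counts, and levels are given as CPM, counts scaled to each library's total after TMM scaling (trimmed mean of M values). The column names show only the genotype, so libraries are called by the tags in those names: DE679, DE685 and DE688 for the knockout, DE680, DE684 and DE689 for the control, and values are listed in that order. One library of each group, DE685 and DE684, held Y-linked transcripts (3311 and 5291 counts) where the other 4 held Xist. The keratinocyte markers Krt5 and Krt14 had 11196 to 15700 and 8847 to 11470 CPM, so the 10 genes, with 0.399 to 38.7 CPM, were a small part of the RNA. Gpr161 itself measured 26.8, 33.6 and 25.9 CPM with the deletion and 30.2, 32.2 and 31.9 CPM without. The knockout DE685 thus stood above every control, while DE679 and DE688 lay below every control. By the edgeR quasi-likelihood test its change was −0.13 on the log2 scale (SE 0.11, adjusted p 0.553). With single libraries left out it ran from −0.26 (without DE685, edgeR adjusted p 0.19) to −0.060 (without DE688, edgeR adjusted p 0.859). The Gpr161 counts therefore do not check the labels, and directions below compare the libraries by their labels only. In RNA from a mixture of cells, fewer cells of a type and less RNA per cell cannot be told apart.

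All 9 pigment, lineage and receptor genes had higher means in the knockout and the ligand a lower one, but no gene of the 10 passed the test. The edgeR quasi-likelihood test called 0 of 10 at an adjusted p under 0.05, where 1.6% of 15422 tested genes were called (1.24% higher in the knockout and 0.357% lower). At an unadjusted p under 0.05 there were 4 against 19% of all tested genes: Dct, Pmel and Mitf had higher levels in the knockout, against 9.9% of all tested genes, and Kitl a lower level, against 9.1%. DESeq2 called 1, Pmel, where it called 5.89% of the genes to which it gave an adjusted p, and limma-voom and limma on the authors' values called 0. The fitted change was above 0 for 9 of the 10 genes, against 49.3% of all tested genes, and its median was 0.53 on the log2 scale against −0.0036 over all tested genes. The genes were chosen with earlier results of these data known, and many of them moved together across the libraries. They are thus not 10 separate observations, and this share carries no test. The 3 libraries of each group did not overlap for Pmel, Mlana and Mitf, which were higher in every knockout library, and for Kitl, which was lower in every knockout library. Over all tested genes, 12.8% did not overlap with the knockout higher and 12.8% with the knockout lower.

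**Figure D1:**
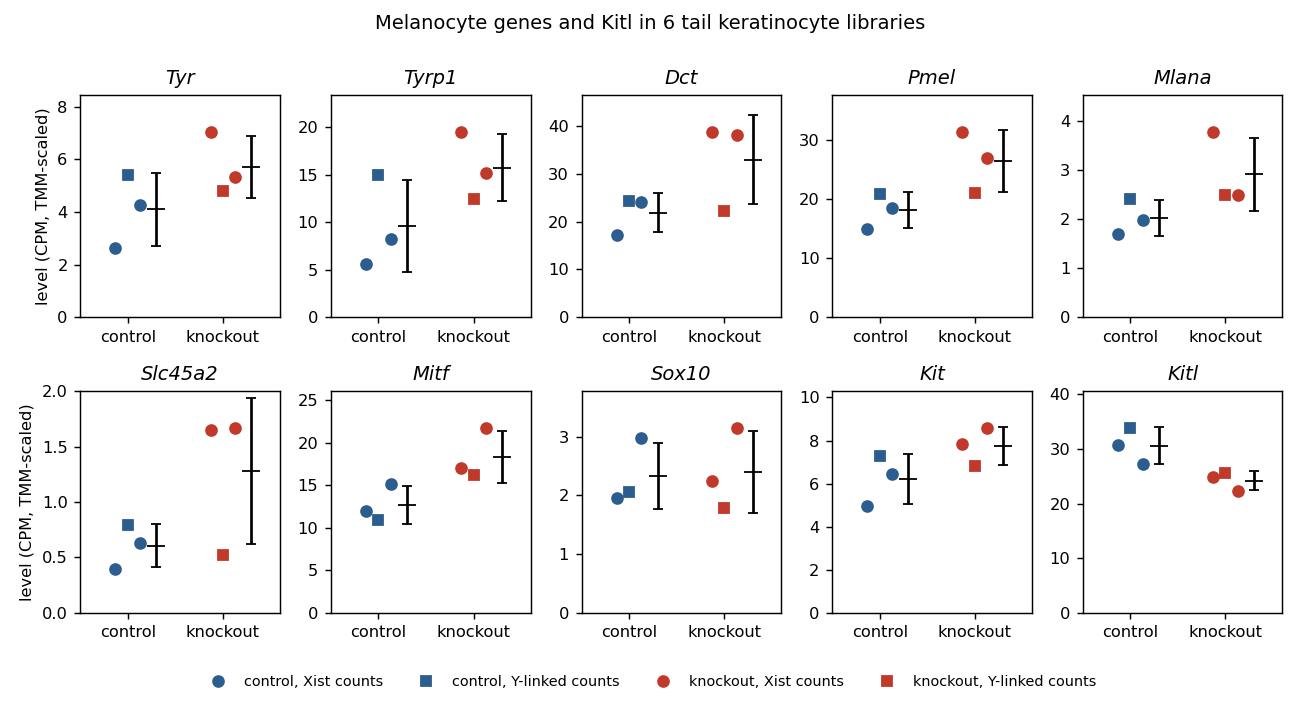
Level of each gene in CPM (y axis, from 0) in the 3 control and 3 knockout libraries; circles are libraries with Xist counts, squares those with Y-linked counts, and bars give the mean and SD of each group. Knockout and control points do not overlap for Pmel, Mlana, Mitf and Kitl, and the knockout square lies below the control square for Tyr, Tyrp1 and Dct.

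Among the pigment enzymes, the knockout means were 1.40 to 1.64 times the control means, and the groups overlapped in all 3. Tyr (chromosome 7, 87424771 to 87493512, minus strand, GRCm38) measured 7.04, 4.79 and 5.33 CPM across the knockout libraries and 2.62, 5.396 and 4.28 CPM across the controls. The control DE684 thus stood above the knockouts DE685 and DE688, and DE680 was lowest. The means were 5.72 ± 1.17 against 4.10 ± 1.40 CPM (SD, n = 3 each), and edgeR fitted a log2 difference of 0.48 (SE 0.28, 95% interval −0.18 to 1.14, edgeR adjusted p 0.396).

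Tyrp1, which acts late in eumelanin synthesis and stabilises tyrosinase, showed the widest spread of the enzymes in the control. This gene (chromosome 4, 80834123 to 80851719, plus strand) measured 19.5, 12.5 and 15.2 CPM across the knockout libraries and 5.59, 14.9 and 8.21 CPM across the controls. Only DE684 among the controls reached the knockout range. The means were 15.7 ± 3.52 against 9.57 ± 4.81 CPM (SD, n = 3 each), and edgeR fitted a log2 difference of 0.72 (SE 0.34, 95% interval −0.061 to 1.495, edgeR adjusted p 0.293).

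Dct, dopachrome tautomerase, is also a marker of immature melanoblasts. It (chromosome 14, 118012790 to 118052244, minus strand) measured 38.7, 22.1 and 38.1 CPM across the knockout libraries and 17.1, 24.3 and 24.1 CPM across the controls. The knockouts DE679 and DE688 stood well above every control, and DE685 lay inside the control range. The means were 33.0 ± 9.40 against 21.8 ± 4.08 CPM (SD, n = 3 each), and edgeR fitted a log2 difference of 0.60 (SE 0.23, 95% interval 0.073 to 1.12, edgeR adjusted p 0.218).

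Among the melanosome genes, Pmel and Mlana separated the groups by narrow gaps. Pmel encodes the protein whose fibrils line the melanosome. It (chromosome 10, 128704195 to 128720238, plus strand) measured 31.4, 21.1 and 27.0 CPM across the knockout libraries and 15.04, 20.97 and 18.6 CPM across the controls. The lowest knockout, DE685, and the highest control, DE684, were nearly equal. The means were 26.5 ± 5.19 against 18.2 ± 2.99 CPM (SD, n = 3 each), and edgeR fitted a log2 difference of 0.54 (SE 0.17, 95% interval 0.15 to 0.94, edgeR adjusted p 0.154). DESeq2 gave 0.55 with an adjusted p of 0.0418. Exons of Pmel share 34 bases with Cdk2 and 105 bases with Dgka on the other strand. Whether reads were counted by strand is not given in the sources used here, so a part of its counts is uncertain.

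Mlana, a small melanosomal protein that binds Pmel, had fewer counts. In this gene (chromosome 19, 29697824 to 29708634, plus strand) the knockout DE679 stood apart with 3.77 CPM, the other knockouts had 2.48 and 2.49 CPM, and the controls measured 1.69, 2.41 and 1.98 CPM. The gap between the groups was again between DE685 and DE684. The log2 fold change was 0.53 (SE 0.27, 95% interval −0.10 to 1.15, edgeR adjusted p 0.330), with means of 2.92 ± 0.743 against 2.03 ± 0.365 CPM (SD, n = 3 each).

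Slc45a2, a melanosomal transporter needed for full pigmentation, was the least abundant of the 10, with 9 to 43 counts per library. It (chromosome 15, 11000721 to 11029233, plus strand) measured 1.65, 0.520 and 1.67 CPM across the knockout libraries and 0.399, 0.790 and 0.635 CPM across the controls. The knockouts DE679 and DE688 were highest, and DE685 lay below 2 of the 3 controls. Its log2 fold change of 1.09 was the largest of the 10 and also had the widest interval, with means of 1.28 ± 0.660 against 0.608 ± 0.197 CPM in 3 libraries each (SE 0.49, 95% interval −0.040 to 2.23, edgeR adjusted p 0.275). This rank depends on the treatment of low counts: limma on the authors' normalized values gave 0.46, below Tyrp1, Dct, Pmel and Mitf.

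Of the lineage factors, Mitf separated the groups and Sox10 did not. Mitf (chromosome 6, 97807052 to 98021349, plus strand), which other skin cells also transcribe from other starts, measured 17.004, 16.2 and 21.8 CPM across the knockout libraries. The controls had 11.979, 10.968 and 15.2 CPM, all below the lowest knockout. The log2 fold change was 0.53 (SE 0.16, 95% interval 0.15 to 0.91, edgeR adjusted p 0.150), with means of 18.3 ± 3.01 against 12.7 ± 2.21 CPM (SD, n = 3 each). The counts are for the whole gene and do not separate the melanocyte transcript from the others.

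Sox10 (chromosome 15, 79154908 to 79165240, minus strand) had nearly equal means, 2.40 ± 0.692 against 2.33 ± 0.562 CPM (SD, n = 3 each). The knockout libraries measured 2.25, 1.79 and 3.15 CPM and the controls 1.95, 2.06 and 2.98 CPM, so the groups were interleaved. The log2 fold change was 0.047 (SE 0.30, edgeR adjusted p 0.950), and its 95% interval, −0.64 to 0.73, holds the changes fitted for every other gene of the 10 except Slc45a2, so it does not show that Sox10 stayed constant. Its sign turned without DE680 (−0.067), without DE684 (−0.035) and without DE688 (−0.20).

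The receptor and the ligand had fitted changes of opposite sign. Kit (chromosome 5, 75574916 to 75656722, plus strand) measured 7.84, 6.82 and 8.60 CPM across the knockout libraries and 4.97, 7.28 and 6.43 CPM across the controls. DE684 again lay within the knockout range. The means were 7.75 ± 0.894 against 6.23 ± 1.17 CPM (SD, n = 3 each). Its fitted log2 difference was 0.32 (SE 0.18, 95% interval −0.10 to 0.74, edgeR adjusted p 0.380).

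Kitl (chromosome 10, 100015630 to 100100416, plus strand), which keratinocytes themselves transcribe, measured 24.8, 25.6 and 22.2 CPM across the knockout libraries. All 3 controls were higher, with 30.7, 33.9 and 27.3 CPM. The means were 24.2 ± 1.75 against 30.6 ± 3.33 CPM (SD, n = 3 each), and edgeR fitted a log2 difference of −0.34 (SE 0.10, 95% interval −0.58 to −0.10, edgeR adjusted p 0.147). Of the 10 genes it had the lowest unadjusted p, 0.0114, and the smallest standard error.

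**Figure D2:**
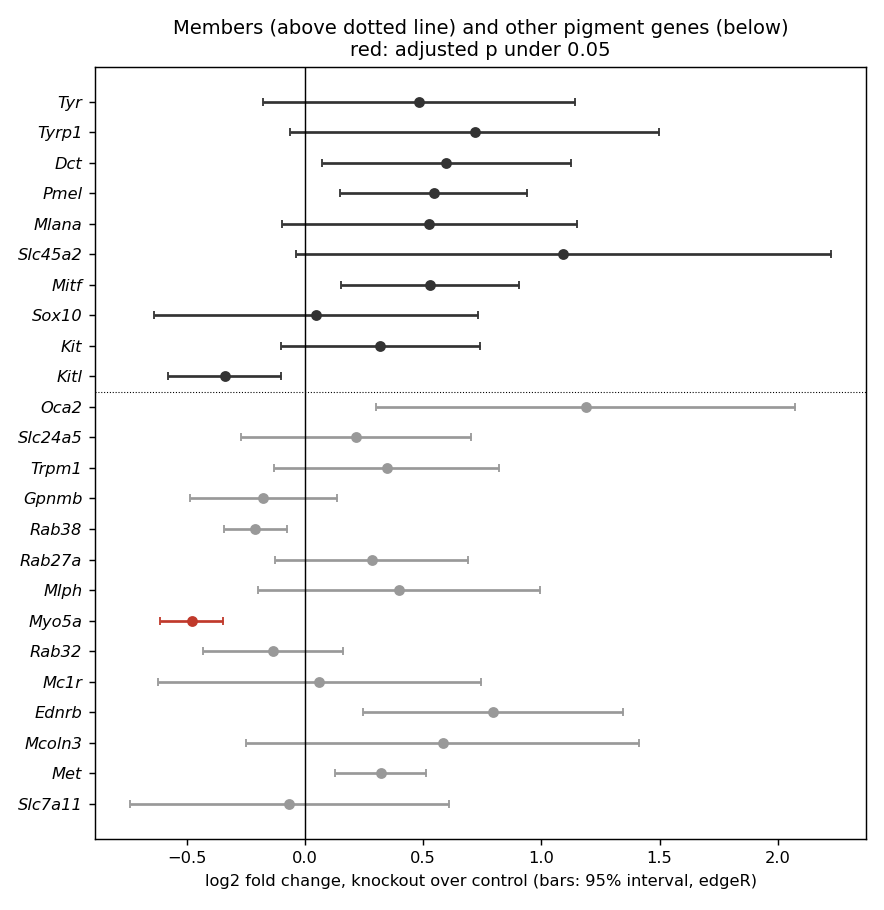
Fitted log2 fold change of knockout over control (x axis) with its 95% interval for the 10 genes (above the dotted line) and 14 other pigment genes (below it); red marks an adjusted p under 0.05. The single red gene is Myo5a at −0.48. Among the 10 genes the intervals of Dct, Pmel, Mitf and Kitl leave out 0 before adjustment. Below the line those of Oca2, Ednrb, Met and Rab38 also do.

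Scaled to exon length, the genes kept a broad order of abundance. In the control, Pmel stood first with 7.94 ± 1.30 CPM per kilobase (SD, n = 3), above every other gene in all 6 libraries. Kitl came next with 5.18 ± 0.564 in the control, then Dct with 3.70 ± 0.692 and Tyrp1 with 3.38 ± 1.70 CPM per kilobase. In the knockout Dct and Tyrp1 (5.59 ± 1.59 and 5.55 ± 1.25 CPM per kilobase) had higher means than Kitl (4.10 ± 0.297). Mitf and Mlana had 2.05 ± 0.356 and 1.92 ± 0.346 CPM per kilobase in the control, and Sox10, Kit and Tyr 0.764 ± 0.184, 0.699 ± 0.131 and 0.577 ± 0.197. Slc45a2 was last with 0.204 ± 0.0659. The control gaps between Dct and Tyrp1, Mitf and Mlana, Sox10 and Kit, and Kit and Tyr were smaller than the larger SD of each pair, and none of these pairs kept its order in all 6 libraries. The gap between Tyrp1 and Mitf was also smaller than the control SD of Tyrp1, but Tyrp1 stood above Mitf in all 6 libraries. Tyrosinase, the enzyme of the first step, had the least transcript per kilobase of the 3 enzymes in every library.

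**Figure D3:**
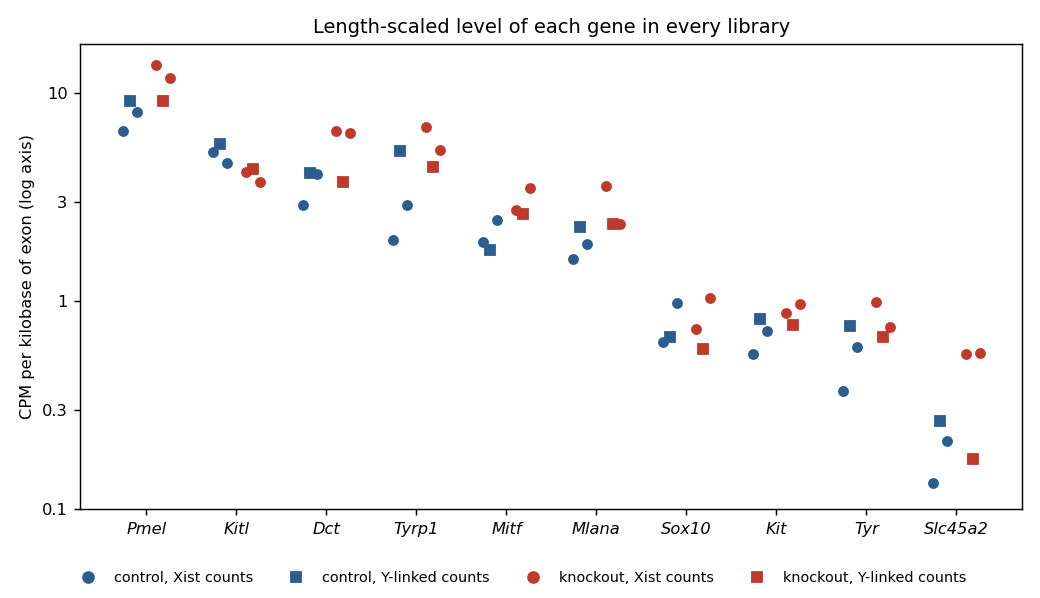
CPM per kilobase of exon (y axis, log scale) of each gene in every library, ordered by the control mean; circles are libraries with Xist counts and squares those with Y-linked counts. Pmel is highest in all 6 libraries, and Slc45a2, at 0.134 to 0.561, is lowest.

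Pigment enzymes were set against lineage factors within each library, as the mean log2(CPM + 0.5) of Tyr, Tyrp1 and Dct minus that of Mitf and Sox10. This difference was 1.38, 0.90 and 0.75 in the knockout libraries and 0.33, 1.27 and 0.45 in the controls. The control DE684 stood above the knockouts DE685 and DE688, so the groups overlapped. The means were 1.01 ± 0.33 in the knockout and 0.68 ± 0.51 in the control (SD, n = 3 each), so the gap of 0.33 was smaller than the control SD. It ranged from 0.15 without DE679 and 0.15 without DE680 to 0.62 without DE684.

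Of 10 ratios between pairs of these genes, taken per kilobase and picked after their counts were seen, 8 overlapped between the groups and 2 did not. The share of ratios between other genes that separate the groups was not counted. Among single genes, 12.8% of all tested genes separated with the knockout higher and 12.8% with the knockout lower. Kitl over Kit was 4.78, 5.66 and 3.902 in the knockout libraries and 9.33, 7.02 and 6.39 in the controls. Every control library thus held more ligand transcript per receptor transcript than any knockout library. Sox10 over Mitf was 0.268, 0.224 and 0.294 against 0.331, 0.382 and 0.398. Each of these 2 ratios holds a gene, Kitl or Mitf, that separated the groups by itself. The ratio of Dct to Mitf overlapped almost fully, with means of 1.89 ± 0.482 and 1.83 ± 0.435 (SD, n = 3 each), as did that of Pmel to Mitf with 3.95 ± 0.905 and 3.96 ± 1.05. Permuting 3 libraries against 3 exactly gives no two-sided p under 0.1, so these ratios carry no test.

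**Figure D4:**
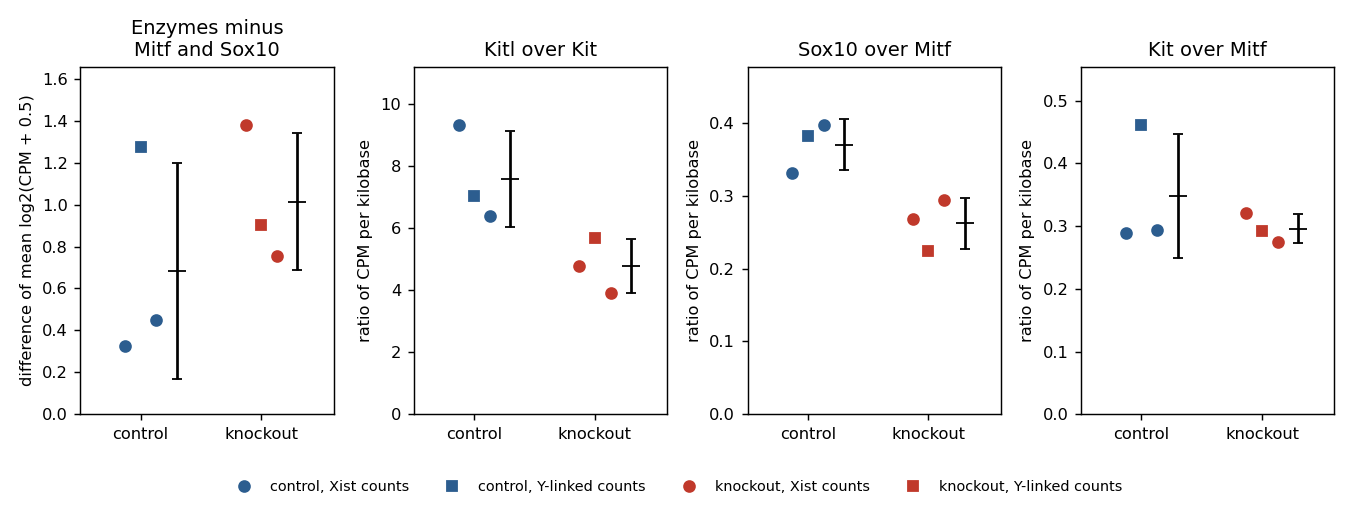
Within-library contrasts (y axes, from 0) in control and knockout: the enzyme minus lineage difference on the log2 scale, and the per-kilobase ratios of Kitl to Kit, Sox10 to Mitf and Kit to Mitf; points are libraries, and bars give mean and SD. Kitl over Kit and Sox10 over Mitf separate the groups, and the other 2 panels overlap.

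The same libraries tended to be high or low across these genes. Leaving Kitl aside, DE680 was lowest for 7 of 9 genes, DE679 was highest for 5 and DE688 for 4. How often these libraries were lowest or highest over all tested genes was not counted, so the pattern is not shown to be particular to these genes. The summed level of the 6 enzyme and melanosome genes was 102 CPM in DE679, 89.8 in DE688 and 63.5 in DE685, against 42.5 in DE680, 57.8 in DE689 and 68.7 in DE684. Among the 4 libraries with Xist, 8 of the 9 genes did not overlap between the genotypes, with the knockout higher, and Sox10 overlapped. With only 2 libraries against 2, in a split made after the data were seen, 25.2% of all tested genes separated in that direction. Between the libraries with Y-linked transcripts, 1 of each genotype, the log2 ratio of knockout to control was below 0 for 6 of the 9 genes. It was −0.17 for Tyr, −0.26 for Tyrp1, −0.13 for Dct, −0.60 for Slc45a2, −0.20 for Sox10 and −0.096 for Kit, against 0.0078 for Pmel and 0.042 for Mlana. The value of Slc45a2 rests on 9 against 18 counts and that of Sox10 on 31 against 47. The knockout library with Y-linked transcripts, DE685, also had the highest Gpr161 level of all libraries, 33.6 CPM. Whether this bears on the ratios was not tested. The share of all tested genes below 0 between these 2 libraries was not counted. For Mitf the ratio was 0.57 there and 0.51 among the libraries with Xist, and for Kitl −0.41 and −0.30.

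Without both libraries with Y-linked transcripts, an alternative chosen after the data were seen, the change was 1.32 for Tyrp1 (edgeR adjusted p 0.0837), 0.89 for Dct (0.0955), 0.79 for Pmel (0.0955) and 1.67 for Slc45a2 (0.150), and 0 of 10 genes passed. An interaction of genotype with this library class, which rests on 1 Y-linked library per genotype, called 0 of the 10 genes (edgeR adjusted p 1.0 for each), with 4 at an unadjusted p under 0.05. Over all tested genes it called 0.0195%, and 3.48% had an unadjusted p under 0.05. A difference in the genotype effect between the library classes was not shown.

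Other pigment genes gave a mixed picture, and 1 of 14 tested passed. Myo5a, the motor that carries melanosomes along actin and is also abundant outside melanocytes, fell in the knockout. It measured 232, 237 and 217 CPM across the knockout libraries and 314, 325 and 316 CPM across the controls, with no overlap. The log2 fold change was −0.48 (SE 0.058, edgeR adjusted p 0.0116), but the call was lost without DE679 (0.0563), without DE688 (0.0604) and without both Y-linked libraries (0.0623). The list's median was 0.25, with 9 changes above 0 and 5 below. At an unadjusted p under 0.05 there were 5 of 14, against 19% of all tested genes.

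The other 4 genes of this list with an unadjusted p under 0.05, named after their values were seen, separated the groups in both directions but did not pass the test. Oca2, a melanosomal anion transporter, had 2.37, 1.27 and 1.48 CPM in the knockout against 0.488, 1.01 and 0.754 CPM in the control (log2 fold change 1.19, SE 0.38, edgeR adjusted p 0.164). Ednrb, the endothelin receptor of melanocytes, had 2.10 to 2.71 against 1.27 to 1.42 CPM (0.80, SE 0.24, edgeR adjusted p 0.142). Met, a receptor for hepatocyte growth factor that keratinocytes also carry, was higher in every knockout library (0.32, SE 0.083, edgeR adjusted p 0.109). Rab38, a small GTPase of melanosome trafficking, was lower in every knockout library (−0.21, SE 0.058, edgeR adjusted p 0.122). Slc24a5, Trpm1 and Mlph, further pigment genes, overlapped between the groups, with changes of 0.22, 0.35 and 0.40 and edgeR adjusted p of 0.614, 0.400 and 0.436. Gpnmb, a relative of Pmel, and Mc1r, the melanocortin receptor, also overlapped, with changes of −0.18 and 0.060 (edgeR adjusted p 0.510 and 0.936).

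Genes of melanosome assembly, which most cells use, had a median change near 0. Of 16 tested, 0 were called by edgeR, DESeq2 or limma, and the median was 0.0032. At an unadjusted p under 0.05 there were 4, against 19% of all tested genes. The lowest p belonged to Dtnbp1 (−0.31, edgeR adjusted p 0.149) and Bloc1s2 (−0.25, edgeR adjusted p 0.179), both subunits of the complex BLOC-1. The other BLOC-1 genes of the list, named after their values were seen, were Bloc1s1, Bloc1s3, Bloc1s5, Bloc1s6 and Snapin. They overlapped between the groups, with changes of −0.077, −0.045, 0.0080, 0.12 and −0.031 (edgeR adjusted p 0.526 to 0.977). Among 9 other lineage transcription factors, edgeR called 0, with 3 at an unadjusted p under 0.05 against 19% of all tested genes. DESeq2 called Lef1 and Sox9, and both limma fits called 0. Lef1, a Wnt effector that acts on Mitf and also in hair follicle keratinocytes, had 11.7, 5.72 and 9.41 CPM in the knockout against 2.26, 5.05 and 2.94 CPM in the control (1.39, SE 0.35, edgeR adjusted p 0.105). Without the Y-linked libraries its change was 2.01 (adjusted p 0.0287). Sox9, which keratinocytes of the follicle express strongly, had 135 to 165 against 96.4 to 116 CPM (0.50, SE 0.096, edgeR adjusted p 0.0551); it passed with upper-quartile factors (0.0475), the sex covariate (0.0416) and DESeq2.

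Besides Kitl, 5 genes for signals to melanocytes could be tested, and edgeR called 0. At an unadjusted p under 0.05 there were 2, against 19% of all tested genes. Ntf3, a neurotrophin, had 6.45, 4.51 and 4.82 CPM in the knockout against 3.15, 1.54 and 2.34 CPM in the control (1.17, SE 0.29, edgeR adjusted p 0.101), and it passed under DESeq2 (0.00846) and with the sex covariate (0.0489). Edn1, an endothelin that acts on melanocytes, had 3.14 to 4.24 against 1.47 to 3.03 CPM (0.73, SE 0.30, edgeR adjusted p 0.240). Both limma fits called 0. Edn3, the endothelin known to drive melanoblast growth, was too low to test, with 5 or 6 counts in each knockout library and 0 or 1 in each control.

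Markers of other cells that transcribe Kit or Sox10 were also read. Of 9 mast cell markers, the other Kit-bearing cell of skin, only Gata2 was in the table analysed, at 0 to 5 counts per library. The Schwann cell list, the other Sox10-bearing cell, summed to 329 to 343 CPM with the deletion and 317.71 to 327.5 CPM without, but nearly all of this came from Erbb3, Egr2, Mbp, Pmp22 and Ngfr, which other cell types are known to transcribe too. Of 7 Schwann genes tested, 0 passed in edgeR, DESeq2 or limma. At an unadjusted p under 0.05 there was 1, Pmp22 (−0.25, edgeR adjusted p 0.239), against 19% of all tested genes.

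Lists for other cell types of the preparation gave these values. The 7 Langerhans cell genes summed to 177 to 279.94 CPM with the deletion and 111 to 232 CPM without, lowest in each group in the Y-linked library. Epcam was the largest of the 7 in every library, with 114 to 135 CPM with the deletion and 77.8 to 103 CPM without. The changes of the 7 genes were all above 0 (median 0.50), and edgeR called 0. At an unadjusted p under 0.05 there was 1, Epcam (0.46, edgeR adjusted p 0.0901), against 19% of all tested genes. DESeq2 called Epcam (adjusted p 0.00289), as did edgeR with the sex covariate (adjusted p 0.0324). Cd207, the defining Langerhans gene, had 1.44 to 4.07 CPM against 0.263 to 2.84 CPM (0.96, edgeR adjusted p 0.488), and its change was 0.46 without DE684 and 1.68 without DE680. Among dermal markers Dcn rose (1.90, SE 0.21, edgeR adjusted p 0.00782), while the 3 collagen genes overlapped between the groups and their changes were −0.38 to −0.54. The collagen genes were highest in the control DE684, at 9.91 to 14.1 CPM. They had 3.01 to 5.50 CPM in the other controls and 3.86 to 6.69 CPM in the knockouts. The dermal list without Dcn summed to 15.4 to 19.3 CPM in the knockout against 12.6 to 39.1 CPM in the control, highest in DE684. Of 10 keratinocyte markers edgeR called 0, with 4 at an unadjusted p under 0.05 against 19% of all tested genes. Their changes were 5 above 0 and 5 below, with a median of −0.11. DESeq2 called Krt15 and Trp63, to which edgeR gave 0.38 (adjusted p 0.104) and 0.23 (adjusted p 0.104). Krt2 and Lor, named after their values were seen, were the lower ones of the 4, with −0.46 (edgeR adjusted p 0.255) and −0.29 (edgeR adjusted p 0.196). Of 3 endothelial genes tested, 0 passed in any of these tools, and Cdh5 and Kdr had changes of −0.94 (edgeR adjusted p 0.281) and −1.06 (edgeR adjusted p 0.304), the latter −0.46 without DE684. The part of these cell types in the values of the pigment genes was not tested.

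The 5 genes outside the lists whose profile over the 6 libraries was closest to the mean of the 6 enzyme and melanosome genes were Rad51c, Sdccag8, Gpc6, Mrpl23-ps1 and Slit1. Likeness was the root mean square difference between centred log2(CPM + 0.5) profiles, which was 0.109 for Rad51c and 0.132 for Slit1. For comparison, it was 0.202 for Kit, 0.329 for Mitf, 0.400 for Sox10 and 0.534 for Kitl. The same measure placed Oca2, at 0.159, 17th of 13679 genes with a mean of at least 1 CPM. Trpm1 was 61st, Slc24a5 208th, Ednrb 356th and Lef1 4002nd in this ranking. Kit was 64th, Mitf 1379th, Sox10 4733rd and Kitl 12073rd. Of the pigment genes that enter the mean, Pmel was nearest to it with 0.076, and Tyrp1, at 0.231, was the farthest of those with a mean of at least 1 CPM.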

How the data were processed

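Stranded libraries of polyadenylated RNA came from 3 knockout and 3 control mice. The authors deposited estimated counts per gene, 53.4% to 58.2% of them whole in a library, and a normalized signal that equals the estimated count times a constant per library plus 0.001; per the submitters' processing notes the tools were bcl2fastq 2.20, cutadapt 1.18, STAR 2.7.0f and Partek, with build mm10. The counting tool, its strand setting and the annotation are not given in the sources used here. Column names give the genotype only, so each column was assigned to a group. No 2 libraries of a group were copies (chi-square per degree of freedom 12.2 to 40.0). Estimated counts were rounded, where the design had assumed whole counts, filtered with filterByExpr, scaled by TMM and fitted with glmQLFit and glmQLFTest (edgeR 4.0.16, R 4.3.3) on genotype, adjusted by Benjamini-Hochberg over 15422 genes; under 0.05 counted as called. SE is the fold change over the root of F. The code was tested on simulated data. Exon lengths and positions came from GENCODE M21 (GRCm38), whose gene starts matched the deposited table. Alternatives used DESeq2 1.42.0, limma 3.58.1, other scalings, filters, pseudocounts, a sex covariate (libraries with Y-linked or with Xist counts) and single libraries left out. Replicates are separate mice only as far as the labels number them, and p-values measure the spread between these libraries; 3 counts equal 0.117 to 0.173 CPM, counting error only.

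Members and lists were chosen with earlier results of these data known. Named genes were all members, from each list every called gene or else the 2 with the lowest p, and the 5 most alike in profile. Some exceptions are marked as named after their values were seen. Other genes outside this rule carry no such mark, among them Slc24a5, Trpm1, Mlph, Gpnmb, Mc1r, Edn3 and the collagen genes. Some listed genes that this rule covers are not reported here.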

Additional observations from a re-analysis of the deposited data

How the results depend on the processing

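For the 10 genes, 0 were called under every edgeR and limma alternative, and DESeq2 called 1; the direction was the same under each alternative for all but Sox10, whose change was −0.20 to 0.27 with one library left out. Over all genes tested 247 were called, against 872 with DESeq2 (606 adjusted p-values NA), 409 with the sex covariate, 87 without both Y-linked libraries and 69 to 121 with one library left out. The share of higher calls was 77.7%, against 64.8% with DESeq2, 82.6% with upper-quartile factors, 89.7% without both Y-linked libraries and 79.8% to 96.7% with one library left out. The lists of other pigment, melanosome assembly and lineage genes had 1 call, against 2 with upper-quartile factors, 3 with DESeq2, 2 with the sex covariate and 0 to 1 with one library left out. The paracrine list had 0, against 1 with DESeq2 and 1 with the sex covariate. The cause was not tested; fewer libraries lower a count by construction. The enzyme minus lineage difference was 0.31 to 0.35 under other pseudocounts, scalings and the authors' values, 0.15 to 0.62 with one library left out and 0.68 without both Y-linked libraries. Changes with one library left out were 0.24 (without DE680) to 0.73 (without DE684) for Tyr, 0.44 (without DE680) to 1.184 (without DE684) for Tyrp1, 0.30 (without DE679) to 0.67 (without DE684) for Mlana, 0.18 (without DE680) to 0.44 (without DE684) for Kit and −0.42 to −0.26 for Kitl. Slc45a2 was not tested with a 1 CPM minimum. No paired analysis was possible because the columns carry no replicate numbers. Depth limits Slc45a2 and the genes at or under 3 counts.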
